A study of Mus musculus with 2 samples.

Results

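The 38 genes described here are markers of fibroblasts other than the collagens: matrix proteins, matrix enzymes, secreted factors, surface proteins, cytoskeletal proteins and transcription factors. They were taken by name from the 48550 rows of the expression table, and all 38 had a row. Nuclear RNA was measured in 2 libraries of F121-6, a female hybrid embryonic stem (ES) cell line of the cross 129 / cas, in which each read that covers a sequence difference can be given to the allele of the laboratory strain 129 or to the allele of Mus musculus castaneus (cas). Both libraries came from the same kind of culture: ES cells on mouse embryonic fibroblasts (MEFs) stopped from dividing with mitomycin C, in serum medium with LIF. The 129 reads were set against the cas reads of the same library, so each group had n = 2. The line is 1 hybrid line, and the sources used here do not name the strain of the MEFs. No label says whether separate cultures gave the libraries, and the spread behind the p-values may be technical.

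Fibroblasts are the cells that lay down and remodel connective tissue. They secrete fibronectin, fibrillin and proteoglycans, crosslink and cut that matrix with lysyl oxidases and metalloproteinases, and hold to it through receptors such as CD44, with vimentin and actin as their inner framework. ES cells have few of these products but do make some of them, such as fibronectin. MEFs are used as a feeder layer, a bed of non-dividing cells that supplies matrix and factors to ES cells, and their RNA enters a library when they are lysed together with the ES cells. In such bulk RNA, fewer cells of a type and less RNA per cell cannot be told apart.

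Values are given as allele reads, recovered as whole numbers from the deposited RPKM. Library 1 held 28523744 allele reads, of which 53.6% were from 129, and library 2 held 31402765, of which 54.2% were from 129. The test took genes with 20 or more allele reads in both libraries, which left 15509 rows, with a median of 383 and 461 reads. Log2 ratios are 129 over cas after scaling (TMM) that puts the median of all rows at -0.003, and the middle 80% of all rows lay between -0.85 and 1.20. A gene was called at an adjusted p under 0.05 by limma, with Benjamini-Hochberg adjustment over all rows tested. The model's standard errors (SE) were shared between genes of like abundance, with a median of 0.21, so they do not carry the spread of 1 gene between its own libraries.

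Most of the fibroblast genes that could be tested had more reads from the 129 allele. Of the 38 genes, 31 passed the read minimum, 20 were called higher from 129, 2 higher from cas and 9 were not called. Over all rows tested, 21.9% were called higher from 129 and 22.0% higher from cas. With at least a 2-fold difference 15 were called higher from 129, against 10.6% of all rows, and 2 higher from cas, against 6.67%. The median log2 ratio of the 31 was 0.995, a 1.99-fold difference, against -0.003 for all rows, and 27 of the 31 ratios were above 0. In 20 of the 31 both 129 values lay above both cas values, as in 32.3% of all rows, and in 2 both lay below, as in 31.1% of all rows. All 22 called genes had the same sign in both libraries, which a call itself favours, and the share over all called rows was not counted. The genes called higher from 129 lay on 13 chromosomes. When 1 shared library size replaced the scaling, the median of all rows was 0.32, 24 of the genes were called higher from 129, and 81.3% of all calls were higher from 129, against 50.0% with the scaling used.

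**Figure D1:**
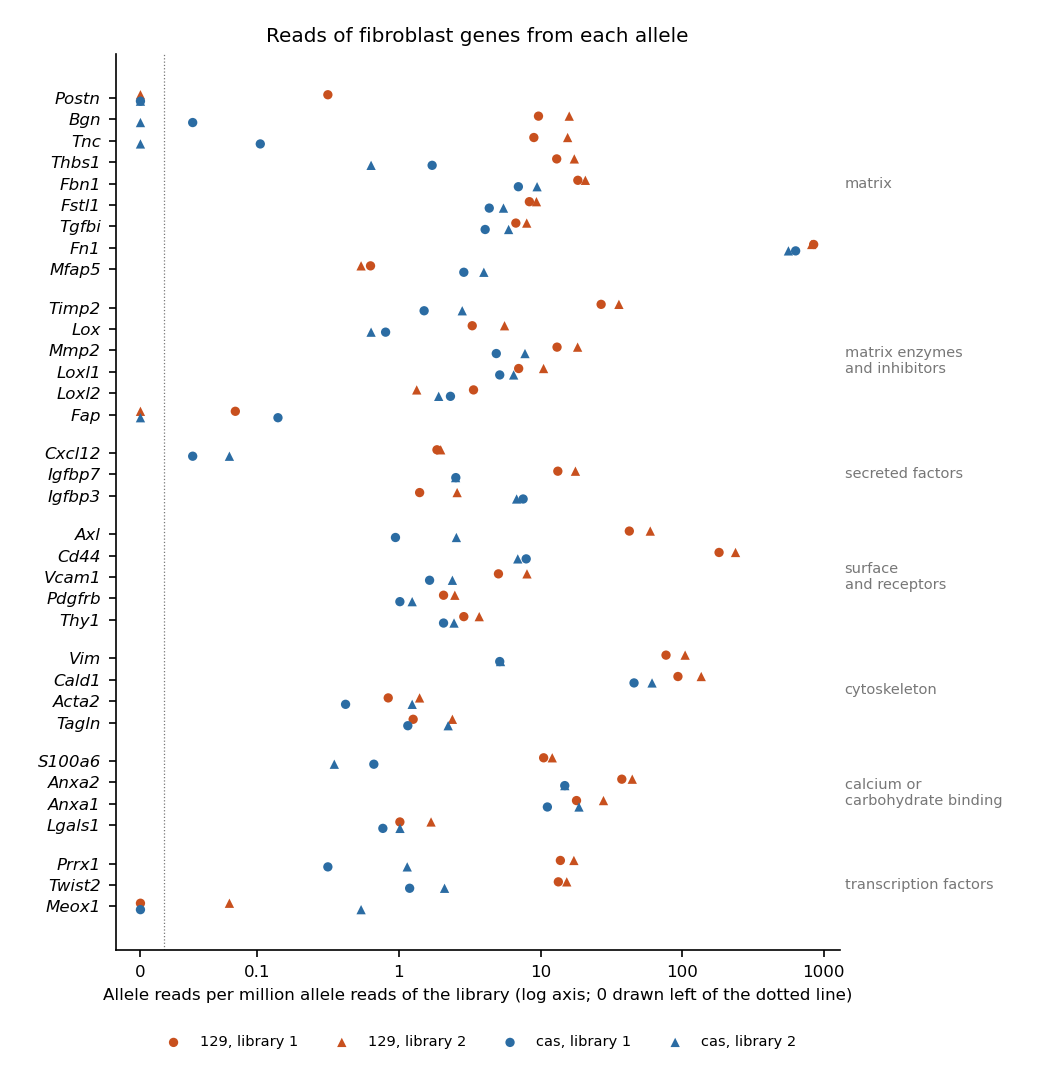
RPM, with all allele reads of the library as the total (log axis), of the 34 fibroblast genes with any read, from the 129 and the cas allele, with a point for each library (circles for library 1, triangles for library 2) and values of 0 left of the dotted line. The genes are grouped by role; most 129 points lie to the right of their cas points, and Igfbp3 and Mfap5 have the opposite order.

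The promoters of 4 of these genes are printed because their alleles were the most one-sided or the best covered. Bgn and Tnc had next to no cas reads, Cd44 had the most reads among the surface genes, and Igfbp3 was 1 of the 2 genes higher from cas. Each is the 250 bases before the RefSeq gene start in build GRCm38.p6, 5′ to 3′ on the gene's strand, and is the reference sequence, which does not show the differences between 129 and cas. Capitals mark 2 short strings, searched on both strands: TATAAA, the core of many TATA boxes, and the GC box of the SP factors, which is GGGCGG. Cd44 and Igfbp3 had neither string in this window.
Bgn, chrX:73483351-73483600 (plus strand): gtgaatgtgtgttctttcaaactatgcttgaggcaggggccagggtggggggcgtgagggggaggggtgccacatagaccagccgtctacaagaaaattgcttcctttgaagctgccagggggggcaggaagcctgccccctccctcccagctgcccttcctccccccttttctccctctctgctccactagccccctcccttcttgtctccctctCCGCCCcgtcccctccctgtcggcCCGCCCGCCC
Tnc, chr4:64047016-64047265 (minus strand): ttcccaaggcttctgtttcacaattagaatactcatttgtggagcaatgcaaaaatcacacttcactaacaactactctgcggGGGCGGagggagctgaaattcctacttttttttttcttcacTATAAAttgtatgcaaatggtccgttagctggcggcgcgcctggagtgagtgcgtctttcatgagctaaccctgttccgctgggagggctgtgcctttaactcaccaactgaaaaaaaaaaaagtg
Cd44, chr2:102901666-102901915 (minus strand): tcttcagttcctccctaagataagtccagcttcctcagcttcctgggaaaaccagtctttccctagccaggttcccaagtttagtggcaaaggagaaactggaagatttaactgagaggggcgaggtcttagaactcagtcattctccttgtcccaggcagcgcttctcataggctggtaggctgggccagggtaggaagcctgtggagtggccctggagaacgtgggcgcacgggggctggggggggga
Igfbp3, chr11:7213924-7214173 (minus strand): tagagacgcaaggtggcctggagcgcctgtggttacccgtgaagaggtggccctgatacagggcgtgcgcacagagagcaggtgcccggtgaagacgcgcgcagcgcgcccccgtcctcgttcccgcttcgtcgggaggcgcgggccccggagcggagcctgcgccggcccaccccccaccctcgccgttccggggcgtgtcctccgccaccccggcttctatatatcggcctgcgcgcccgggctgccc
Bgn had 3 matches to GGGCGG, of which the last 2 overlap, and Tnc had a match to each. Among the 24 of the 38 genes found in the promoter table, 8 held TATAAA and 14 held GGGCGG, against 12.37% and 32.74% of all 32851 promoters of that length. Of the 15 found among the genes called higher from 129, 3 held TATAAA and 10 held GGGCGG. The GC content of the printed promoters was 64.4% for Bgn, 44.8% for Tnc, 56.4% for Cd44 and 73.2% for Igfbp3.

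Among the 8 matrix genes tested, 6 were higher from 129, 1 was higher from cas and 1 was not called. Over all rows tested, 21.9% were higher from 129 and 22.0% higher from cas. Each role holds few genes, and no role was tested as a set. Bgn encodes biglycan, a small proteoglycan that binds collagen, and is X-linked. It had 276 reads from 129 and 1 from cas in library 1, and 501 from 129 and 0 from cas in library 2. Pooled over both libraries, 99.87% of its reads were from 129 (exact binomial interval 99.29 to 100%, counting error only), and the 0 in library 2 allows a cas level of up to 0.599% of the 129 reads. Tnc encodes tenascin C, a matrix glycoprotein of developing and healing tissue. It had 256 and 488 reads of 129 in libraries 1 and 2, against 3 and 0 of cas, a pooled 129 share of 99.6% (98.83 to 99.92%). Cas was thus at or near 0 for both genes in both libraries.

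Thbs1 encodes thrombospondin 1, a secreted glycoprotein that binds the cell surface and matrix. It had 371 and 544 reads of 129 in libraries 1 and 2, against 49 and 20 of cas. The 129 values lay well above the cas values in both libraries, with a log2 ratio of 3.45 (SE 0.27, limma adjusted p = 1.12e-35), although the ratio was 2.59 in library 1 and 4.31 in library 2. Fbn1 encodes fibrillin 1, the main protein of microfibrils. It had 523 and 651 reads of 129, against 199 and 297 of cas, with a log2 ratio of 0.93 (SE 0.154, limma adjusted p = 1.17e-08), and the groups did not overlap. Fstl1, a secreted glycoprotein of mesenchymal cells, had 238 and 294 reads of 129 and 124 and 172 of cas. Its difference was small but of the same sign in both libraries, at 0.52 (SE 0.211, limma adjusted p = 0.0318), and was not called without the library block (adjusted p = 0.132).

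Fn1, the gene of fibronectin, was the most read of the 38. It had 24172 and 25769 reads of 129 in libraries 1 and 2, against 18033 and 17654 of cas. Its 129 share was 58.3% ± 1.46 (SD, n = 2), beside 53.6% and 54.2% of all reads, and its scaled values overlapped between the alleles. These shares are of unscaled reads, whereas the log2 ratio follows the scaling. The log2 ratio of 0.155 (SE 0.038) passed the test (limma adjusted p = 0.000169) but not without the library block (adjusted p = 0.317). Tgfbi, a matrix protein induced by TGF-beta, had 191 and 251 reads of 129 and 116 and 187 of cas and was not called, with a log2 ratio of 0.24 (limma adjusted p = 0.396).

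Mfap5, a protein of elastic-fibre microfibrils, ran the other way. It had 18 and 17 reads of 129 in libraries 1 and 2, against 82 and 125 of cas. Cas was higher in both libraries, 6.72-fold on the fitted scale, with a log2 ratio of -2.75 (SE 0.447, limma adjusted p = 6.76e-09) and a 129 share of 15.0% ± 4.26 (SD, n = 2). The centre of its row's window lay 7.7 kb from the annotated start, so this row may not be placed on the annotated gene start.

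Of the 5 matrix enzymes and inhibitors tested, 3 were higher from 129, against 21.9% of all rows, and 2 were not called. Timp2, an inhibitor of metalloproteinases, had 764 and 1123 reads of 129 in libraries 1 and 2, against 43 and 88 of cas. The 129 share was 93.7% over the libraries, and the log2 ratio was 3.55 (SE 0.191, limma adjusted p = 1.98e-74). Its target Mmp2, gelatinase A, had 373 and 574 reads of 129 against 139 and 244 of cas. This was a smaller difference, of 0.995 (SE 0.174, limma adjusted p = 7.42e-08), and the groups did not overlap. Lox, the lysyl oxidase that crosslinks collagen and elastin, had 94 and 175 reads of 129 against 23 and 20 of cas, with a log2 ratio of 2.18 (SE 0.404, limma adjusted p = 4.5e-07).

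The other lysyl oxidases among the 38 genes did not pass. Loxl1, which acts on elastin, had 200 and 330 reads of 129 against 147 and 203 of cas, with a log2 ratio of 0.24 (limma adjusted p = 0.352). Loxl2 had 96 and 42 reads of 129 against 66 and 60 of cas. Its ratio had opposite signs in the libraries, 0.24 in library 1 and -0.85 in library 2, and -0.30 over both (limma adjusted p = 0.536). Their relative Loxl3, from the list of elastic fibre genes, had 189 and 211 reads of 129 against 26 and 28 of cas and was called higher from 129, with a log2 ratio of 2.50 (SE 0.343, limma adjusted p = 3.88e-12).

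All 3 secreted factors tested were called, in both directions, against 43.9% of all rows called in either direction. Cxcl12, the chemokine that binds CXCR4, had 53 and 62 reads of 129 in libraries 1 and 2, against 1 and 2 of cas. Pooled, 97.5% of its reads were from 129 (exact binomial interval 92.75 to 99.47%). Igfbp7, a secreted protein that binds insulin-like growth factors (IGF) weakly, had 378 and 554 reads of 129 against 72 and 79 of cas, with a log2 ratio of 2.25 (SE 0.217, limma adjusted p = 7.32e-24). Igfbp3, a carrier of IGF in blood and tissue, had 40 and 81 reads of 129, against 215 and 213 of cas. All cas values of Igfbp3 lay above its 129 values, by 4.61-fold over both libraries, with a log2 ratio of -2.20 (SE 0.281, limma adjusted p = 5.74e-14) that was -2.68 in library 1 and -1.73 in library 2.

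Among the 5 surface genes tested, 3 were higher from 129, against 21.9% of all rows, and 2 were not called. Cd44, the receptor of hyaluronan, had 5194 and 7474 reads of 129 in libraries 1 and 2, against 226 and 217 of cas. Its 129 share was 96.5% ± 0.95 (SD, n = 2) and its log2 ratio 4.48 (SE 0.094), far past the threshold. Axl, a receptor tyrosine kinase for Gas6, had 1208 and 1869 reads of 129 against 27 and 80 of cas, a log2 ratio of 4.64 (SE 0.181, limma adjusted p = 2.46e-139). The cas reads of both receptors were thus a few percent of the total in both libraries. Vcam1, an adhesion molecule that binds integrins, had 144 and 252 reads of 129 against 47 and 75 of cas, with a log2 ratio of 1.33 (SE 0.287, limma adjusted p = 1.75e-05).

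Both surface genes that were not called are used to sort or define fibroblasts and pericytes. Thy1 had 82 and 116 reads of 129 in libraries 1 and 2, against 59 and 77 of cas, with a log2 ratio of 0.20 (SE 0.328, limma adjusted p = 0.657). Pdgfrb, a receptor of platelet-derived growth factor, had 59 and 78 reads of 129 against 29 and 39 of cas. Its 129 values lay above its cas values in both libraries, but with so few reads the log2 ratio of 0.66 had an SE of 0.425 and was not called (limma adjusted p = 0.205).

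Of the 4 cytoskeletal genes tested, 2 were higher from 129, against 21.9% of all rows, and 2 were not called. Vim, which encodes the intermediate filament vimentin, had 2193 and 3295 reads of 129 in libraries 1 and 2, against 147 and 164 of cas, a 129 share of 94.5% ± 1.09 (SD, n = 2) and a log2 ratio of 3.77 (SE 0.12, limma adjusted p = 5.57e-207). Cald1, the actin-binding protein caldesmon, had 2662 and 4281 reads of 129 against 1304 and 1924 of cas, with a log2 ratio of 0.76 (SE 0.073, limma adjusted p = 5.94e-24). The groups did not overlap for either gene, and vimentin was by far the more one-sided. The smooth muscle genes of myofibroblasts had few reads. Acta2, smooth muscle actin, had 24 and 44 reads of 129 against 12 and 39 of cas (log2 ratio 0.24, SE 0.558, limma adjusted p = 0.767), and Tagln, transgelin, had 36 and 75 of 129 against 33 and 70 of cas (log2 ratio -0.21, SE 0.415, limma adjusted p = 0.717).

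Of the 4 genes for calcium-binding or carbohydrate-binding proteins tested, 2 were higher from 129, against 21.9% of all rows. S100a6, calcyclin, had 300 and 380 reads of 129 in libraries 1 and 2, against 19 and 11 of cas, with a log2 ratio of 4.09 (SE 0.349, limma adjusted p = 3.55e-30). Anxa2, a membrane-binding annexin, had 1069 and 1395 reads of 129 against 423 and 466 of cas, with a log2 ratio of 1.13 (SE 0.114, limma adjusted p = 8.96e-22). Its relative Anxa1 stood just outside the threshold, with 512 and 874 reads of 129, 319 and 587 of cas, and a log2 ratio of 0.30 (SE 0.13, limma adjusted p = 0.0504). Lgals1, galectin 1, had 29 and 53 reads of 129 against 22 and 32 of cas and was not called (log2 ratio 0.23, limma adjusted p = 0.756).

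Both transcription factors that could be tested were higher from 129, against 21.9% of all rows. Prrx1, a homeobox factor of limb and head mesenchyme, had 394 and 540 reads of 129 in libraries 1 and 2, against 9 and 36 of cas. The log2 ratio was 4.23 (SE 0.306, limma adjusted p = 1.06e-41), with 4.97 in library 1 and 3.50 in library 2. Twist2, a basic helix-loop-helix factor of the dermis, had 381 and 481 reads of 129 against 34 and 66 of cas, with a log2 ratio of 2.81 (SE 0.247, limma adjusted p = 2.04e-28). Cas reads of both genes were few in both libraries and did not overlap the 129 reads.

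**Figure D2:**
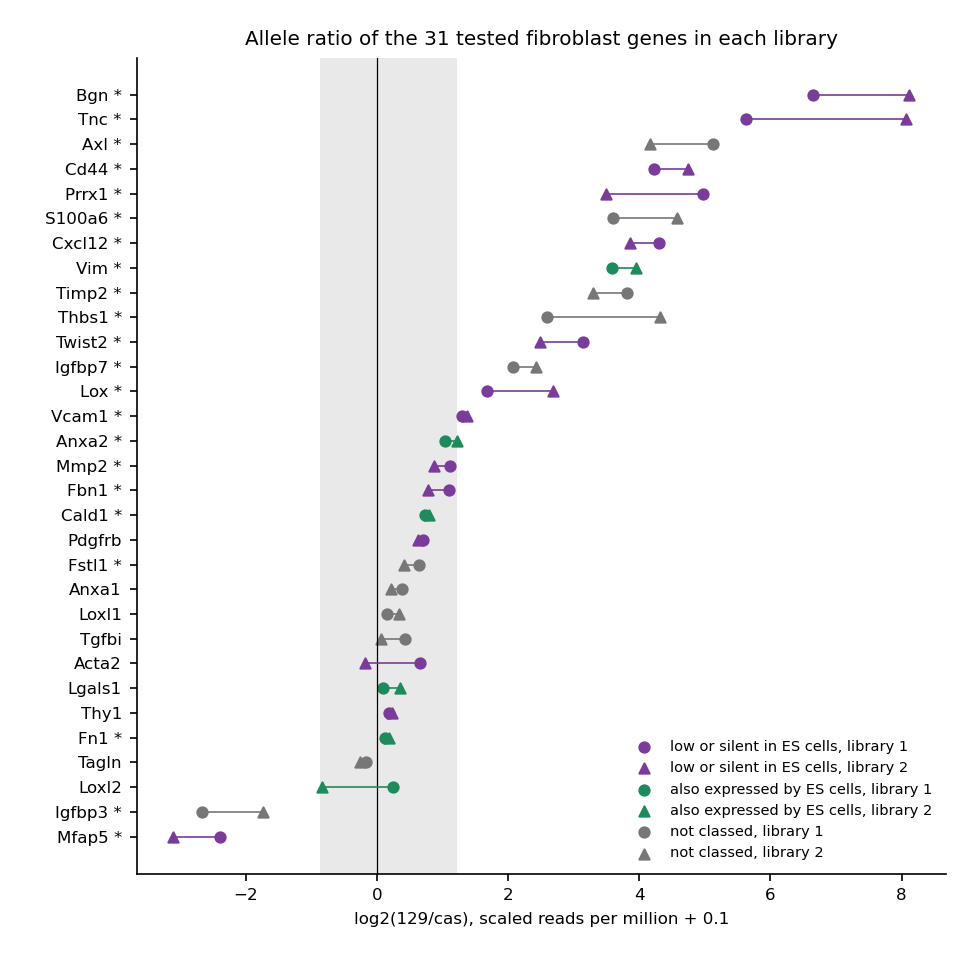
Log2 ratio of 129 over cas of the 31 tested fibroblast genes in library 1 (circles) and library 2 (triangles), joined by a line and coloured by class, with the middle 80% of all rows shaded. Asterisks mark the 22 called genes, of which 20 lie right of 0 and Igfbp3 and Mfap5 left of it.

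The other 7 genes had too few reads. Cav1, Cav2, Twist1 and S100a4 were listed at 0 in all 4 columns, which allows up to 0.105 RPM in library 1 and 0.0955 in library 2. Cav1 and Cav2 form caveolae, Twist1 is the relative of Twist2, and S100a4 is a common fibroblast label. Postn, periostin, had 9 reads from 129 and 0 from cas, all in library 1. Fap, a surface protease of activated fibroblasts, had 2 reads from 129 and 4 from cas in library 1 only, and Meox1, a homeobox gene of somites, had 2 from 129 and 17 from cas in library 2 only. A gene is also at 0 in these columns when no read covers a difference between 129 and cas, and the number of such differences per gene was not measured, so a 0 does not show that a gene was silent.

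The genes were divided, from textbook knowledge, into those that are low or silent in ES cells and those that ES cells also express. Earlier results of these data were known when the classes were set, so the classes are not independent of them. The read minimum counts both alleles together. Bgn and Tnc of the low or silent class passed it through 129 reads, and Mfap5 passed it only with its cas reads. Over all rows tested, 21.9% were called higher from 129 and 22.0% higher from cas. Of the 18 listed as low or silent, 14 were tested, and 10 of them were higher from 129, 1 from cas and 3 not called, with a median log2 ratio of 1.76 (1.49 in library 1 and 1.93 in library 2). Of the 6 that ES cells also express, 4 were higher from 129 and 2 were not called, with a median of 0.49 (0.49 and 0.57). Among the unclassed genes 11 were tested, with 6 higher from 129, 1 from cas and 4 not called. Their median was 0.52 (0.64 and 0.41), and their summed 129 share was 78.45% in library 1 and 78.85% in library 2. Summed over each class, 90.1% of the reads of the low or silent class were from 129 in both libraries. The share was 60.2% and 63.2% for the genes that ES cells also express. Each sum rested on its most read gene, Cd44 in the low or silent class and Fn1 among the genes that ES cells also express. Without Cd44 the share of the low or silent class was 80.7% in library 1 and 79.3% in library 2, with a median of 1.33. Without Fn1 the share of the genes that ES cells also express was 75.5% and 77.4%, with a median of 0.76. The wide gap between the summed shares was thus carried largely by Fn1 and Cd44, and was a few percentage points without them. Without Vim in place of Fn1 the share was 58.5% and 61.0%, with a median of 0.23. The difference between the classes was not tested.

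Levels of different genes were compared as RPM (over the allele reads of the library) per kb of annotated gene span, a scale that still depends on how many sequence differences each gene holds. On this scale of levels the 129 allele of Fn1 stood at 12.5 and 12.1 in libraries 1 and 2, and that of Vim at 8.64 and 11.8. Cd44 (2.01 and 2.63) and Axl (1.35 and 1.89) followed from 129. From cas, Fn1 stood at 9.34 and 8.31, and the next level was that of Igfbp3, at 0.962 and 0.865, close to Anxa1, at 0.638 and 1.07, whose range contains it. Vim, which stood next to Fn1 from 129, was at 0.579 and 0.587 from cas. The median level of the low or silent class was 0.267 from 129 and 0.046 from cas. That of the genes ES cells also express was 0.861 from 129 and 0.346 from cas. Loxl2 went against its class, with a level of only 0.0271 from 129 and 0.0243 from cas.

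The summed level of the fibroblast genes differed between the libraries, and how depended on Fn1. Without Fn1, the 37 genes had 637 RPM from 129 in library 1 and 856.5 in library 2, and 140 and 178.6 from cas, so the 129 share was 82.0% and 82.7%. With Fn1 the sums were 1484 RPM from 129 in library 1 and 1677 in library 2, and 772.2 and 740.8 from cas, so the cas sum was then lower in library 2, and the 129 share was 65.8% and 69.4%. Of the 31 genes, 28 had more 129 RPM in library 2 than in library 1, against 62.2% of all rows, and the median ratio of library 2 to library 1 was 1.33, against 1.076 for all rows. Of the 28 genes with at least 20 cas reads over both libraries, 20 had a ratio above 1 from cas, against 57.3% of all rows. Their median ratio from cas was 1.29, against 1.045 for all rows. The ES cell markers had a median of 0.97 from 129 and from cas. With 1 library on each side there was no test, and the share of feeder cells in each library was not measured.

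**Figure D3:**
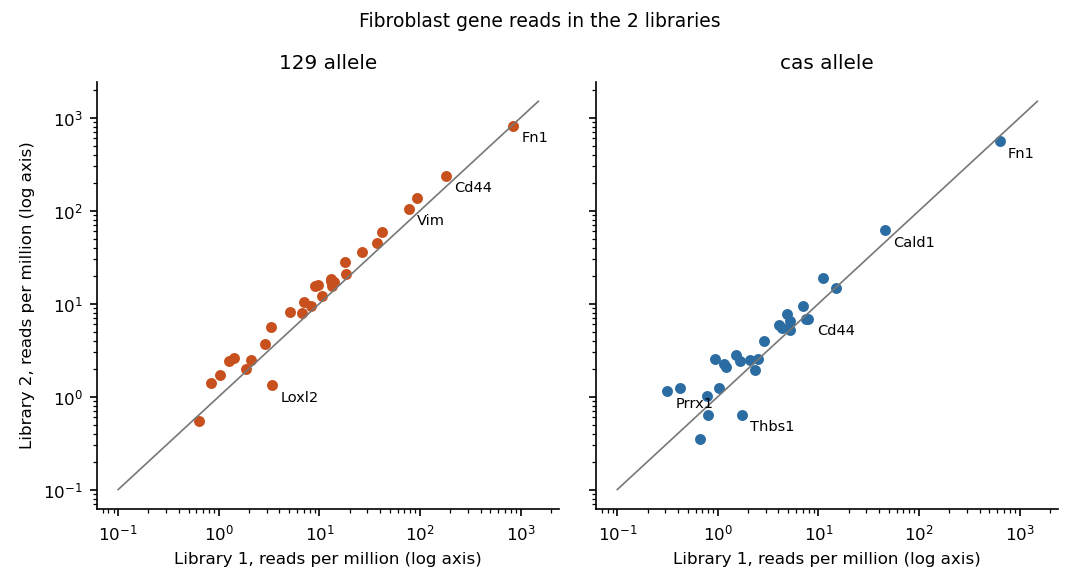
RPM in library 2 (vertical log axis) against RPM in library 1 (horizontal log axis) for each fibroblast gene with at least 20 reads of the allele, from 129 on the left and from cas on the right, with a line where both are equal. From 129, 28 of the 31 genes lie above the line, and from cas 20 of 28.

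Overlapping genes limit some of these values, and no source used here says whether reads were counted by strand. Prrx1, Twist2, Timp2, Anxa2 and Loxl2 overlap a gene on the same strand, where counting by strand would not separate the reads. Of the 31 genes, 16 overlap another annotated gene, among them 13 of the 20 called higher from 129. Among the 15 that overlap none, 7 were higher from 129 and 2 higher from cas, against 20.6% and 21.5% of all 7094 such rows. Tnc is overlapped by 8030451A03Rik, which had a log2 ratio of 5.00, and their reads cannot be told apart. Fn1 is likewise overlapped by Apol7d (0.77) and Igfbp7 by Polr2b (0.49), both called higher from 129.

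The nearest tested gene on either side of each fibroblast gene was read in the same fit. Of the 40 such neighbours of the 20 genes called higher from 129, 13 (32.5%) were themselves higher from 129 and 4 higher from cas. For all 3402 rows called higher from 129 the share was 35.4%, and for all rows 21.9%. Of the 13, 3 overlap the fibroblast gene itself and may share its reads. Among the 37 neighbours that do not, 10 (27.0%) were higher from 129. This compares with 35.1% for all rows called higher from 129 and 22.4% for all rows. The distances were unlike, with a median of 122.3 kb for the 37, 80.6 kb for all rows called higher from 129 and 60.6 kb for all rows. The X-linked Bgn lay between Haus7 (-0.28) and Atp2b3 (0.20), neither of which was called. Cd44 had Slc1a2 (5.18), a glutamate transporter, on 1 side and Pdhx (0.25) on the other, both called. Igfbp3 lay between Adcy1 (0.24) and Tns3 (0.21, 1450.6 kb away), both called higher from 129. Mfap5 lay between Rimklb (-0.30), itself called higher from cas, and Apobec1 (-0.02), which was not called. Rimklb thus shared the cas direction of Mfap5, but no neighbour of Igfbp3 or Mfap5 had a cas excess of their size.

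**Figure D4:**
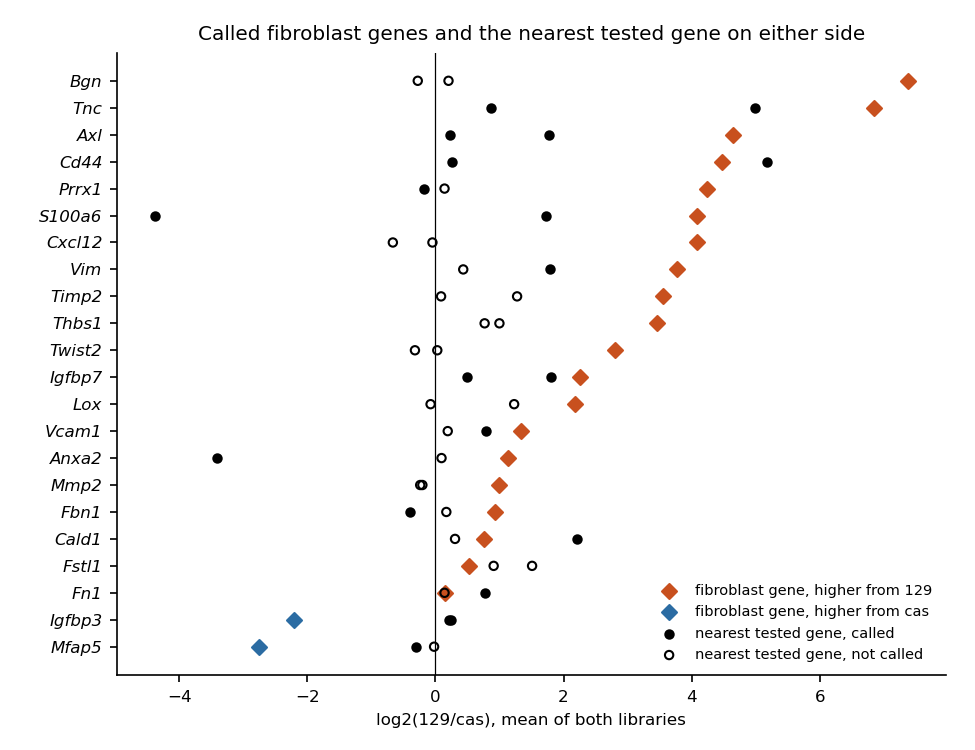
Log2 ratio of 129 over cas of each called fibroblast gene (diamonds) and of its nearest tested neighbours on either side (circles, filled where called). For the genes higher from 129, 13 of 40 neighbours were also called higher from 129.

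Other gene lists of fibroblasts and of other cells were read in the same fit. In 6 further lists of connective tissue genes, 88 genes were tested, of which 42 were higher from 129, 16 higher from cas and 30 not called. Their median log2 ratio was 0.61. Over all rows tested, 21.9% were higher from 129 and 22.0% higher from cas, and the counts of single lists stand beside those shares. The median differed between the lists, and these differences were not tested. Among 15 protease and inhibitor genes 9 were higher from 129 and 1 from cas (median 1.68), and among 17 fibroblast surface and signalling genes 9 were higher from 129 and 2 from cas (median 1.22, or 0.61 without library 2). Of 11 mesenchymal transcription factor genes 7 were higher from 129 and 2 from cas (median 1.14). Of 18 contractile genes 8 were higher from 129 and 1 from cas (median 0.19), and of 15 elastic fibre genes 6 were higher from 129 and 4 from cas (median 0.28, or 0.13 without library 1). Of 12 proteoglycan genes 3 were higher from 129 and 6 from cas, with a median of -0.29, which was 0.04 with 1 shared library size, -0.16 without library 1 and -0.18 without library 2.

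Pdgfra, the receptor that marks many fibroblasts, had 559 and 909 reads of 129 in libraries 1 and 2, against 25 and 27 of cas, with a log2 ratio of 4.38 (SE 0.252, limma adjusted p = 2.38e-65). Ddr2, a collagen receptor, had 1741 and 2410 reads of 129 against 157 and 226 of cas (3.10 on the log2 scale, SE 0.122, limma adjusted p = 7.93e-137). The transcription factors Sox9, of cartilage, and Zeb2, of mesenchyme, had log2 ratios of 4.50 and 4.31, and Runx1 had 2.86. Adamts1, a matrix protease, had 3.26. Against these, Ncam1, an adhesion molecule, and Pdpn, podoplanin, were higher from cas, with log2 ratios of -0.96 and -1.62, as were Zeb1 (-0.46) and Ltbp1 (-0.40). Genes of connective tissue were therefore found on both sides, but 22.0% of all rows were also called higher from cas.

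Markers of other cell types were mostly not called higher from 129. Over all rows tested, 21.9% were called higher from 129 and 22.0% higher from cas. Most of these lists held too few tested genes to show a departure from those shares. Of 17 ES cell markers, 1 was higher from 129 (Dppa5a) and 8 from cas, with a median log2 ratio of -0.17 that was 0.15 with 1 shared library size. Esrrb, the most read of them, had 21634 and 20980 reads of 129 against 18146 and 17760 of cas (-0.08, limma adjusted p = 0.0696). Of 6 endothelial markers 1 was higher from 129 and 3 from cas: Tek had a log2 ratio of 1.94 and Pecam1 one of -0.82. None of 3 macrophage markers was called. No marker of epithelium (6 tested), primitive endoderm (5) or skeletal muscle (2) was higher from 129, and 2, 1 and 1 of them were higher from cas. Of 5 neural markers 1 was called in each direction.

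**Figure D5:**
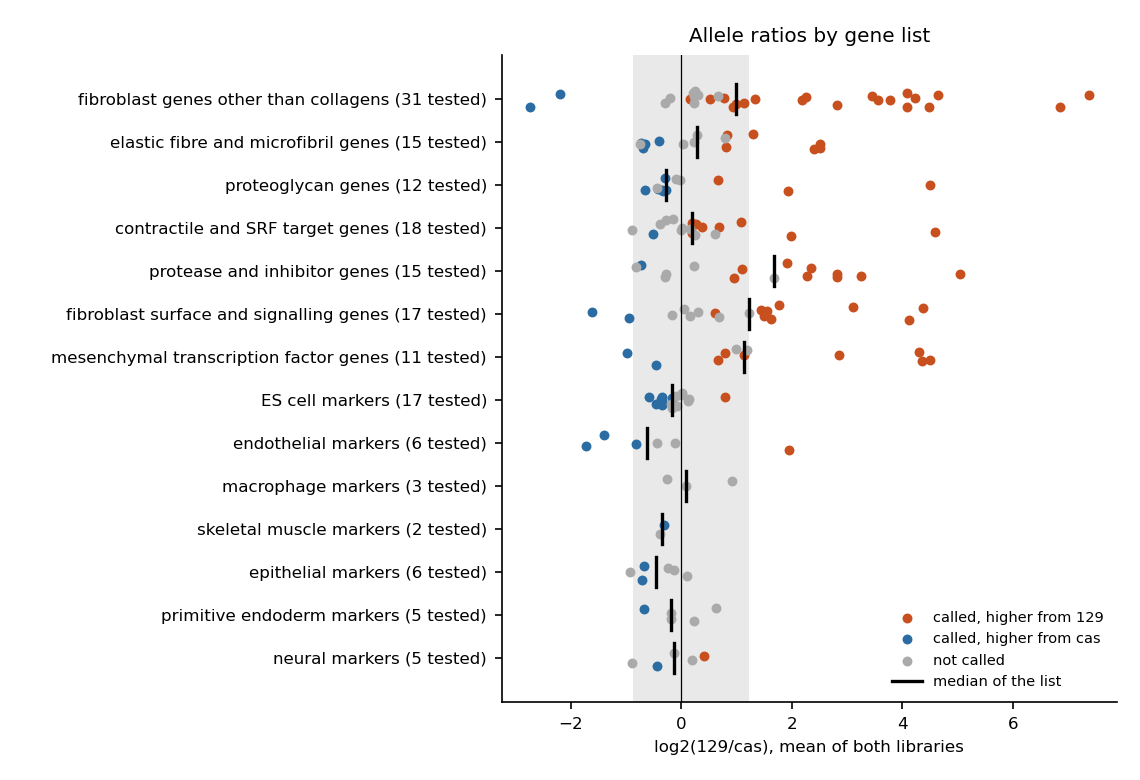
Log2 ratio of 129 over cas of every tested gene in the fibroblast list and the 13 other lists, with a bar at the median of each list, colours for the call and the middle 80% of all rows shaded. The fibroblast list has a median of 0.995, the protease and inhibitor list 1.68 and the ES cell markers -0.17.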

How the data were processed

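Total nuclear RNA was sequenced as stranded 100 bp paired-end libraries, per the labels' protocols, with newer reads merged into earlier ones. Alignment used Bowtie2 and mm10, per the submitters' processing notes. How reads were counted, with which SNPs and annotation and whether by strand, is not stated in the sources used here. The deposited values are RPKM, although the columns are named counts per the file headers. Value times length came out as whole reads for 100.0% of values, with a tolerance of 0.01 read. The deposited lengths matched the annotated span within 2 bp for 67 rows, so the RPKM of different genes were not compared, whereas a ratio of 2 alleles of 1 gene does not depend on the length. Spans came from GENCODE M21, matched for 95.6% of rows, and promoters from RefSeq (GRCm38.p6).

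Recovered reads were scaled to CPM with TMM, trimming 30% of M and 5% of A values. Then limma 3.58.1 in R 4.3.3 was fitted to log2(CPM + 0.1), with trended variances and the library as a block, over rows with at least 20 allele reads in each library. Fold changes on this scale understate those of genes with few reads. Rows on the Y chromosome, 1570 in number, were not tested, since the labels call the cells female. A quasi-likelihood count model was planned only for raw counts and was not run, since the deposited unit is RPKM. The alleles of a library were read from 1 RNA, so the library numbers pair the columns. The prior degrees of freedom were infinite. On simulated data for 15390 genes 67.2% of the 67 genes changed 1.5-fold, 92.5% of the 67 changed 2-fold and 100% of the 66 changed 4-fold were called, with 18 false calls among 191. The simulation gave all genes 1 dispersion (0.0016), estimated from well-read rows only, and changed far fewer genes than the 43.9% of rows called here. It held no difference in dispersion between genes, so it cannot give the error rate of these data. Intervals are 95% exact binomial ones, and a 0 allows up to 3 reads; both cover counting error only. The genes, their classes and the lists were chosen with earlier results of these data known. All 38 genes are named. From each other list up to 5 were eligible, the 3 most read and 2 called genes with the largest ratios. Alternatives were other scalings, pseudocounts and filters, no block, an exact binomial test, genes with no overlap, and leaving out a library.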

Additional observations from a re-analysis of the deposited data

How the results depend on the processing

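Of 258 tested values of single fibroblast genes under alternatives, 244 kept their sign and their side of the threshold, 10 newly passed it, 2 lost it and 2 changed sign, both of them uncalled: with 1 shared library size Tagln was at 0.11 and Loxl2 at 0.016. Of 62 values that leave out a library, which have no test, 60 kept their sign, and Acta2 (-0.16 without library 1) and Loxl2 (0.24 without library 2) did not. Between 18 and 24 genes were called higher from 129 in every alternative but 1, and 2 higher from cas in each. Over genes with no overlapping annotation the count was 7 of 15. That set holds fewer genes by construction, but the share called was also lower than the 13 of 16 among overlapping genes in the main fit. The median log2 ratio without overlap was 0.67, beside 0.15 for all such rows, where 64.7% of 2991 calls were higher from 129. The cause of the lower share was not tested. With 1 shared library size the median of the fibroblast genes was 1.32. That of the low or silent class was 2.08 and that of the genes ES cells also express 0.82. The median of all rows was then 0.32, and Anxa1, Loxl1, Pdgfrb and Tgfbi were called. With column totals the median of the genes ES cells also express was 0.59, the median of all rows was 0.10 and 61.9% of all calls were higher from 129. With at least 100 reads the median of the 26 genes left was 1.25. Anxa1 was also called with column totals, with pseudocounts of 0.5 and 1, with at least 100 reads and by the exact binomial test (adjusted p from 3.15e-05 to 0.0491), and Pdgfrb by the last (0.0249). Without the replicate block, which ignores the pairing of the alleles within a library, 18 genes were called higher from 129, and 3954 rows in all against 6809; Fn1 and Fstl1 lost their calls. Leaving out a library leaves no test. The median then ranged from 0.89 to 1.09 for all the fibroblast genes and from 1.49 to 1.95 for the low or silent class. For the genes ES cells also express it ranged from 0.48 to 0.60. Of the medians of the 13 other lists, 4 changed sign with 1 shared library size and 2 without library 2. A change of scaling moves the log2 ratios of all genes in the same direction, as the median of all rows of 0.32 or 0.10 shows. The cause of the shifts on leaving out a library was not tested. With 2 libraries and few reads, differences were not detectable for genes such as Acta2, Lgals1 and Tagln unless large.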
